A study of Cavia porcellus with 44 samples.

Results

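Liver RNA of guinea pigs taken off a high fat/high cholesterol feed was compared with that of animals left on it, with high vitamin C (vitC) in both. The comparison held 6 HFL/LFH and 6 HFL/HFH animals, 12 of the 44 sequenced, taken by their group label. All were female Hartley guinea pigs. In the first 16 weeks both groups ate feed with 20% fat, 0.35% cholesterol, 15% sucrose and 50 mg vitC per kg. In the next 16 weeks HFL/HFH animals had the same fat, cholesterol and sucrose with 2000 mg vitC per kg. HFL/LFH animals had the same vitC with 3.8% fat, 0% cholesterol and 0% sucrose, and were pair-fed to HFL/HFH. Fat, cholesterol and sucrose were thus withdrawn together. By the paper's feed composition, the low fat feed also held more fiber and starch, less energy per kg and other plant ingredients. The parts of all these differences cannot be told apart. The labels give the disease state as NAFLD in HFL/LFH and NASH in HFL/HFH. The other groups were LFH (n = 8) and HFH (n = 8), which ate the low fat or high fat feed with 2000 mg vitC per kg for all 32 weeks, and HFL/LFL (n = 6) and HFL/HFL (n = 10), which made or did not make the same change of feed at 50 mg vitC per kg. All animals were semi-fasted overnight before the liver was taken.

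Cholesterol that reaches the liver holds back its own synthesis: sterol-rich membranes keep the transcription factor SREBP2 inactive, and oxidized sterols activate the liver X receptors, which promote export. In steatohepatitis, lipid-laden hepatocytes are joined by recruited macrophages, matrix-producing stellate cells and reactive bile duct epithelium. Guinea pigs, like humans, cannot synthesize vitC and carry most plasma cholesterol in LDL.

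Total counts ranged from 21773672 to 28189773 in HFL/LFH and from 21133807 to 27870654 in HFL/HFH, a mean log2 difference of 0.02 (two-sided exact permutation test, p = 0.805). The 10 most abundant symbols took 17.8% to 26.6% of the counts in HFL/LFH and 16.7% to 19.6% in HFL/HFH, and effective library sizes (edgeR's TMM normalization, used for all CPM, the counts scaled to library size) were lower in HFL/LFH by a log2 difference of -0.45 (exact p = 0.00216, the smallest that 924 splits can give). HFL/LFH animals 33 and 43 stood apart from the rest of their group on the second principal component of these 12 animals, with albumin at 45533 and 50785 CPM against a group median of 135840 CPM. Each of the 30 pairs of animals within a group differed by more than sampling noise.

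Of 7750 symbols tested, 2784 (35.9%) had an edgeR adjusted p under 0.05 between HFL/LFH and HFL/HFH. In HFL/LFH 1279 (16.5%) were higher and 1505 (19.4%) lower. A change of at least 2-fold was seen for 353 of the higher and 891 of the lower genes, and one of at least 4-fold for 68 and 398, so the large changes were mostly falls. CPM of the groups did not overlap for 1253 genes (16.2%). The median log2 fold change of all genes was -0.01. Without HFL/LFH animals 33 and 43 the count was 2982 (1349 higher, 1633 lower). Scaling to total counts in place of TMM moved the median of all genes to -0.47 and the calls to 399 higher (9.88%) and 3639 lower, against 45.9% higher with TMM. Directions below are relative to the median gene, and a gene is said to rise or fall where HFL/LFH was above or below HFL/HFH at week 32, since no liver from before the switch is among the samples.

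**Figure D1:**
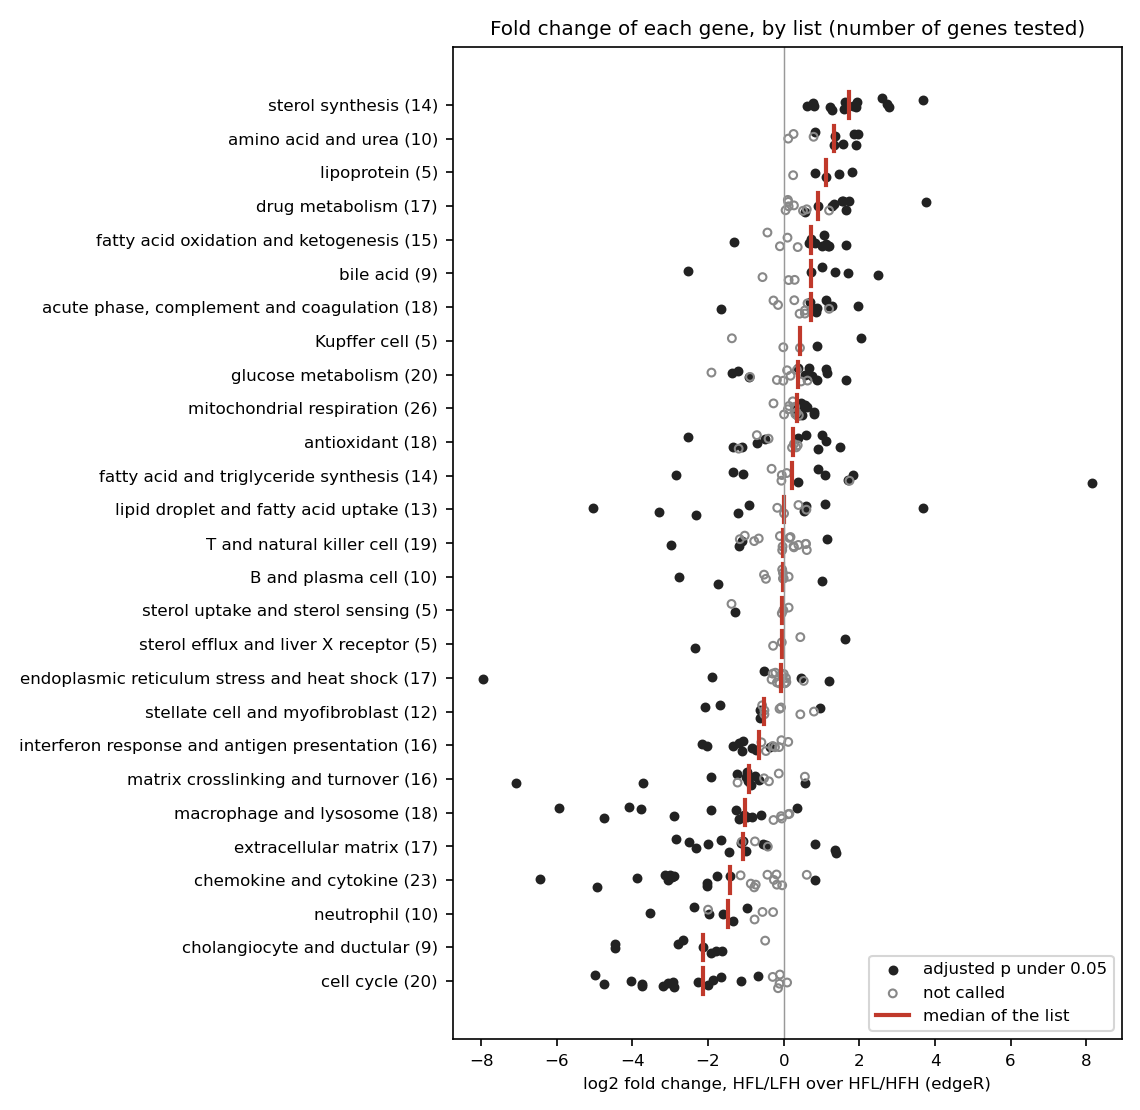
The log2 fold change of HFL/LFH over HFL/HFH is plotted for each gene of 27 lists, ordered by list median, with filled points at an edgeR adjusted p under 0.05. Sterol synthesis genes all lie right of 0, with a median of 1.72, and most cell cycle and cholangiocyte genes lie left of it, each list with a median of -2.14.

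Withdrawal of the feed was followed by higher expression of the whole measured sterol synthesis pathway. All 14 genes tested of 21 listed rose, with log2 fold changes of at least 0.62 and a median of 1.72, and the groups' CPM did not overlap for 10 of them. Scaled to total counts, 10 of the 14 were called, all higher. The steps after squalene and the late modification of the sterol ring changed the most. MSMO1, a sterol C4-methyl oxidase, had 94.9, 209 and 689 CPM (lowest, median and highest animal) in HFL/LFH and 31.1, 38.2 and 52.1 CPM in HFL/HFH, without overlap (6.94-fold higher, log2 2.79, SE 0.29, edgeR adjusted p = 3.29e-10). Its highest animal, HFL/LFH 32, was well above the next at 289 CPM. NSDHL, which works with MSMO1 in removing the methyl groups, was 6.65-fold and SC5D, a sterol desaturase, 6.04-fold higher.

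SQLE, squalene epoxidase, had 60.2, 96.3 and 253 CPM in HFL/LFH and 26.1, 31.7 and 36.7 CPM in HFL/HFH (3.77-fold higher, adjusted p = 8.36e-09), but shares its counts with ZNF572 and cannot be told apart from it. TM7SF2, a sterol reductase, was 3.04-fold higher with 285 to 513 CPM against 112 to 160 CPM. The early kinases MVK and PMVK changed least, at 1.54-fold and 1.71-fold, and their groups overlapped. In LFH the median of MSMO1 was 300.2 CPM and that of SQLE 104 CPM, and neither was called against HFL/LFH (log2 differences of HFL/LFH over LFH -0.28 and 0.16, adjusted p = 0.769 and 0.866).

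**Figure D2:**
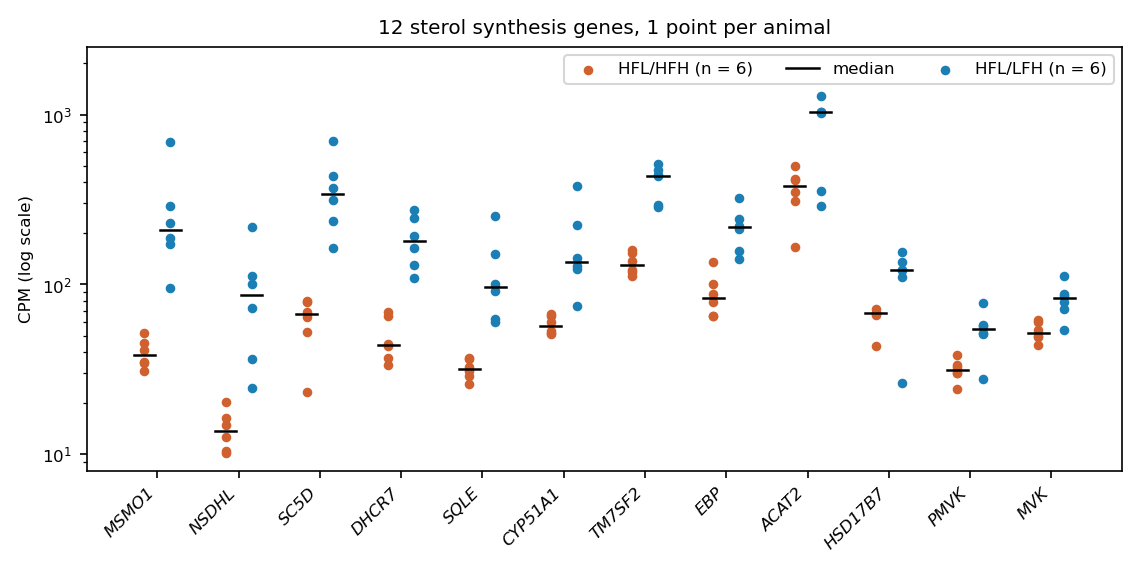
CPM on a log axis of 12 of the sterol synthesis genes tested, 1 point per animal with a line at the median of 6 animals, ordered by fold change. HFL/LFH points lie above HFL/HFH points without overlap for 8 genes, among them MSMO1 with 52.1 CPM at most in HFL/HFH and 94.9 CPM at least in HFL/LFH.

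Genes of sterol uptake and handling were mostly not called with TMM. Of 5 tested of 15 listed, only LIPA, the lysosomal acid lipase that frees cholesterol from its esters, was called, and it fell (79.5, 98.8 and 120 CPM against 106, 232 and 344 CPM, 2.42-fold, adjusted p = 9.11e-05). With total counts 3 of the 5 were called, all lower (median -0.53). STARD4, a carrier of cholesterol between membranes, had a log2 fold change of -0.01 (adjusted p = 0.983). Among 5 genes of sterol efflux and the liver X receptor tested of 13 listed, 1 rose and 1 fell, or 1 and 3 with total counts and 2 and 2 with limma voom. ABCG1, a sterol exporter and a liver X receptor target abundant in macrophages, had 26.4, 36.4 and 55.1 CPM in HFL/LFH and 143, 207 and 221 CPM in HFL/HFH (5.05-fold lower, log2 -2.34, SE 0.22, adjusted p = 3.46e-11). NR1H3, which encodes liver X receptor alpha, went the other way, with 322, 492 and 550 CPM against 107, 138 and 204 CPM (3.10-fold higher, adjusted p = 4.68e-09). APOE, a ligand for lipoprotein receptors, had medians of 45235 and 50423 CPM and was not called (log2 -0.05, adjusted p = 0.837). FASN was not analysed here.

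Genes of fatty acid and triglyceride synthesis split. Of 14 tested of 23 listed, 6 rose, 3 fell and 5 were not called, with a median of 0.23 that became -0.23 with scaling to total counts. THRSP, a nuclear protein that promotes lipogenesis and responds to carbohydrate and thyroid hormone, was near 0 on the high fat feed: it had 22.1, 229 and 325 CPM in HFL/LFH and 0, 0.323 and 1.92 CPM in HFL/HFH (log2 8.14, SE 0.89, adjusted p = 1.56e-09). SLC25A1, the citrate exporter of mitochondria, rose 2.15-fold, and GPAM and DGAT2, the first and last enzymes of triglyceride assembly, 3.27-fold and 1.88-fold. The desaturases of polyunsaturated fat fell: FADS2 had 0.330, 1.71 and 2.66 CPM against 2.79, 10.6 and 22.3 CPM (7.2-fold lower, adjusted p = 0.000310), and FADS1 was 2.55-fold lower. ACACA, acetyl-CoA carboxylase, was not called (log2 -0.32, adjusted p = 0.147).

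Lipid droplet and fatty acid uptake genes changed in both directions, 4 of 13 tested up and 5 down (22 listed). Their median of 0.01 became -0.02 with upper quartile scaling and -0.39 with total counts. CIDEA, a droplet fusion protein, had 83.7, 163 and 227 CPM in HFL/LFH and 6.85, 10.7 and 24.4 CPM in HFL/HFH (12.9-fold higher, log2 3.69, SE 0.38, adjusted p = 3.60e-10). PLIN2, the coat protein of hepatocyte droplets, had 34.9, 56.5 and 101.4 CPM against 140, 285 and 571 CPM (4.98-fold lower, adjusted p = 1.08e-06). LPL, which releases fatty acids from lipoproteins, had 2.99, 7.47 and 14.9 CPM against 27.4, 59.6 and 151 CPM (9.87-fold lower, adjusted p = 2.11e-08). FABP4, a fatty acid carrier of adipocytes and macrophages, had 0.834, 0.980 and 5.02 CPM against 15.3, 46.4 and 108 CPM (33.2-fold lower, adjusted p = 4.18e-08). The groups of all 4 genes were apart. The adipocyte list held PLIN1, CIDEA and LIPE, and its summed level of 106 to 262 CPM against 18.98 to 38.86 CPM was largely CIDEA. ADIPOQ and LEP, the defining hormones, were below the 200 counts needed for testing.

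Fatty acid oxidation and ketogenesis genes mostly rose, 10 of 15 tested of 30 listed, with 1 fall and a median of 0.73 (0.27 with total counts). CPT1A, which admits fatty acids to mitochondria, had 107, 516 and 883 CPM in HFL/LFH and 123, 154 and 188 CPM in HFL/HFH (3.15-fold, log2 1.66, SE 0.38, adjusted p = 0.000558), so 1 HFL/LFH animal lay below every HFL/HFH animal. ECHS1 and ETFB, of the oxidation spiral and its electron transfer, rose 2.31-fold and 2.09-fold without overlap. ACADL, a long-chain acyl-CoA dehydrogenase, was the exception and fell 2.48-fold. Mitochondrial respiration genes rose by little: 17 of 26 tested of 36 listed, median 0.35, with NDUFV1 of complex I 1.53-fold and FH, fumarase, 1.76-fold higher. This depended on scaling: with total counts the median was -0.11, none of the list was called higher and 3 were called lower, and NDUFB8 of complex I (1.28-fold higher with TMM, and counted together with another symbol) had a log2 fold change of -0.09.

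Lipoprotein and amino acid genes, which hepatocytes express, were mostly higher after the switch. Among lipoprotein genes 4 of 5 tested of 17 listed rose (median 1.11). APOA2, an HDL apolipoprotein, had 1389, 1590 and 2223 CPM against 231, 456 and 733 CPM (3.48-fold, log2 1.80, SE 0.23, adjusted p = 3.17e-08), PON1, an HDL-bound esterase, rose 2.78-fold and APOH 2.16-fold. Of the amino acid and urea genes 7 of 10 tested of 32 listed rose (median 1.34) and none fell. TDO2, which opens the tryptophan ring, had 685, 908 and 1107 CPM against 269.9, 324 and 477 CPM (2.52-fold higher, adjusted p = 5.61e-08), and BHMT, which remethylates homocysteine, 3.93-fold with overlap.

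Drug metabolism genes rose in 9 of 17 tested of 43 listed, with none lower and a median of 0.92. CYP1A2, a cytochrome P450 induced through the aryl hydrocarbon receptor, had 2629, 2998 and 5059 CPM in HFL/LFH and 79.7, 145 and 788 CPM in HFL/HFH (13.6-fold, log2 3.76, SE 0.49, adjusted p = 6.95e-08). HFL/HFH animal 20 was far above the next of its group, at 271 CPM, and still below every HFL/LFH animal. CYP2B6, a target of the receptor CAR, rose 3.29-fold. The receptor gene AHR was not called (log2 0.11). The bile acid list had 5 of 9 tested of 23 listed higher and 1 lower (median 0.73). AKR1D1, a reductase of bile acid precursors, had 300, 520 and 591 CPM against 20.6, 62.3 and 174 CPM (5.64-fold, adjusted p = 2.22e-06). CYP8B1, which sets the share of cholic acid, rose 3.27-fold with overlap (adjusted p = 0.0181), and was not called with total counts (adjusted p = 0.0587). ABCC4, a basolateral exporter that relieves cholestatic hepatocytes, had 2.72, 5.01 and 8.57 CPM against 19.02, 27.1 and 52.99 CPM and fell 5.77-fold (adjusted p = 4.23e-09).

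Glucose metabolism genes had 8 of 20 tested of 31 listed higher and 3 lower (median 0.37, or -0.13 with total counts). SLC37A4, the transporter that feeds glucose-6-phosphatase, rose 3.16-fold (342 to 710 CPM against 99.5 to 248 CPM), and KHK, of fructose breakdown, 2.21-fold. LDHA, lactate dehydrogenase, and HK2, the hexokinase of growing cells, fell 2.60-fold and 2.34-fold. Of acute phase, complement and coagulation genes 9 of 18 tested of 45 listed rose and 1 fell (median 0.71). The complement components C8B and C8A rose 3.92-fold and 2.42-fold, and LRG1, an acute phase glycoprotein, fell from 160, 231 and 345 CPM in HFL/HFH to 38.3, 79.5 and 127 CPM in HFL/LFH (3.19-fold, adjusted p = 0.000326). CRP was not called (log2 0.28).

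Some hepatocyte markers moved with these groups. The 4 tested of 12 listed summed to 75446 to 211124 CPM in HFL/LFH and 41082 to 71794 CPM in HFL/HFH, without overlap, and 2 of them were called higher. Most of the sum was ALB, while ASGR1 (log2 0.20, adjusted p = 0.376) and SERPINA1 (log2 0.56, adjusted p = 0.0583) were not called and overlapped. In bulk liver, fewer cells of a type and less RNA per cell cannot be told apart, and the part of cell composition in the changes above was not tested.

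Genes of lipid-associated macrophages and their lysosomes fell. Of 18 tested of 35 listed, 12 fell and 1 rose, with a median of -1.01. TREM2, a lipid receptor of these cells, had 0, 2.27 and 12.3 CPM in HFL/LFH and 36.6, 69.1 and 93.2 CPM in HFL/HFH (17.1-fold lower, log2 -4.10, SE 0.52, adjusted p = 3.06e-08). MMP12, the macrophage elastase, had 0, 0.890 and 3.31 CPM against 14.7, 59.97 and 183 CPM (61.3-fold lower, adjusted p = 4.81e-10). CLEC7A, a fungal glucan receptor of myeloid cells, had 0.343, 0.876 and 1.68 CPM against 10.1, 25.2 and 39.0 CPM (27.1-fold lower, adjusted p = 5.97e-11). FABP5 and LGALS3, a lipid carrier and the lectin galectin-3, fell 13.8-fold and 7.44-fold. All these groups were apart by a wide margin.

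Not every macrophage gene followed. The complement gene C1QA, made by resident and recruited macrophages, had 311 to 771 CPM against 272 to 746 CPM and was not called (log2 0.12, adjusted p = 0.730), and CTSK rose by 1.28-fold. In the Kupffer cell list, the resident macrophages of the liver, 2 of 5 tested of 12 listed rose and none fell (median 0.43, or -0.01 with total counts). That is 40% of the list, near the 35.9% called of all genes. CD5L, a secreted protein of Kupffer cells, had 128, 166 and 262 CPM in HFL/LFH and 9.92, 44.02 and 73.2 CPM in HFL/HFH (4.10-fold higher, log2 2.04, SE 0.45, adjusted p = 0.000395). MRC1, the mannose receptor of Kupffer and sinusoidal endothelial cells, was 1.84-fold higher without overlap. CD163, of the same list, went the other way at low levels and was not called. It had at most 0.330 CPM in HFL/LFH and 0.928 CPM in HFL/HFH (log2 -1.37, adjusted p = 0.344). Of the macrophage markers only MSR1 and CD163 of 7 listed were tested, with sums of 43.2 to 75.4 CPM against 74.8 to 146 CPM.

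Chemokines and cytokines were lower in 12 of 23 tested of 38 listed, and 1 was higher (median -1.42). CCL2, which draws monocytes, had 0.638, 1.27 and 3.8 CPM in HFL/LFH and 17.4, 59.7 and 76.8 CPM in HFL/HFH (30.5-fold lower, log2 -4.93, SE 0.46, adjusted p = 3.58e-11). CCL7, a second monocyte chemokine, was at 0 in all HFL/LFH animals but 1, which had 0.362 CPM, and had 2.29, 4.57 and 14.2 CPM in HFL/HFH (adjusted p = 2.11e-08). Symbols for CCL3, CCL18 and CCL3L1 shared counts and could not be told apart. The names occur in a pair of sets with different counts, of which the more abundant fell 14.8-fold and the other 69.4-fold. CXCL8, a neutrophil chemokine, and TNF, an inflammatory cytokine, fell 7.51-fold and 4.09-fold, from at most 10.4 and 7.6 CPM. The gene that rose was IL33, an alarmin (1.78-fold, adjusted p = 0.0252). IL1B (log2 -0.43) and CXCL10 (log2 -1.14, adjusted p = 0.234) were not called.

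Neutrophil genes fell in 6 of 10 tested of 18 listed and rose in none (median -1.47), most of them at low levels. S100A8, a subunit of calprotectin, had 0, 0.464 and 0.824 CPM against 1.08, 1.47 and 5.38 CPM (adjusted p = 0.0106). CYBB, the phagocyte oxidase, fell 2.52-fold with overlap. Neutrophil markers (4 tested of 5) summed to 4.76 to 20.2 CPM against 13.1 to 30.3 CPM. Interferon response and antigen presentation genes fell in 9 of 16 tested of 30 listed, or 14 with total counts, and rose in none (median -0.66). RSAD2, an antiviral enzyme, had 14.1, 27.2 and 39.5 CPM in HFL/LFH and 56.6, 96.2 and 263 CPM in HFL/HFH (4.50-fold lower, adjusted p = 8.32e-05), and MX1 fell 4.06-fold. B2M was not called (log2 0.12).

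Few T cell genes were called. Of 19 T and natural killer cell genes tested of 27 listed, 1 rose and 3 fell (median -0.03), where 35.9% of all genes were called. CD3E, a chain of the T cell receptor complex, had 127, 146 and 186 CPM against 36.2, 68.3 and 118 CPM (2.21-fold higher, adjusted p = 0.000133), whereas CD3D and CD3G had log2 fold changes of 0.26 and 0.58 and were not called. CTLA4, a checkpoint of activated T cells, had a median of 0.0678 CPM against 1.12 CPM and fell 7.83-fold (adjusted p = 0.00897). Among 10 B and plasma cell genes of 16 listed, 1 rose, and POU2AF1 and DERL3, of antibody-secreting cells, fell 3.34-fold and 6.87-fold, while JCHAIN of the same cells had a log2 fold change of 0.00. T cell markers (5 tested of 5) summed to 149.5 to 202.5 CPM in HFL/LFH and 51.92 to 135.9 CPM in HFL/HFH. Most of this sum was CD3E, and the other 4 markers were not called and overlapped, with log2 fold changes of -0.10 for CD2 and 0.15 for LCK. Summed B cell markers (4 tested of 5), at 350 to 576 CPM against 314 to 507 CPM, overlapped.

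**Figure D3:**
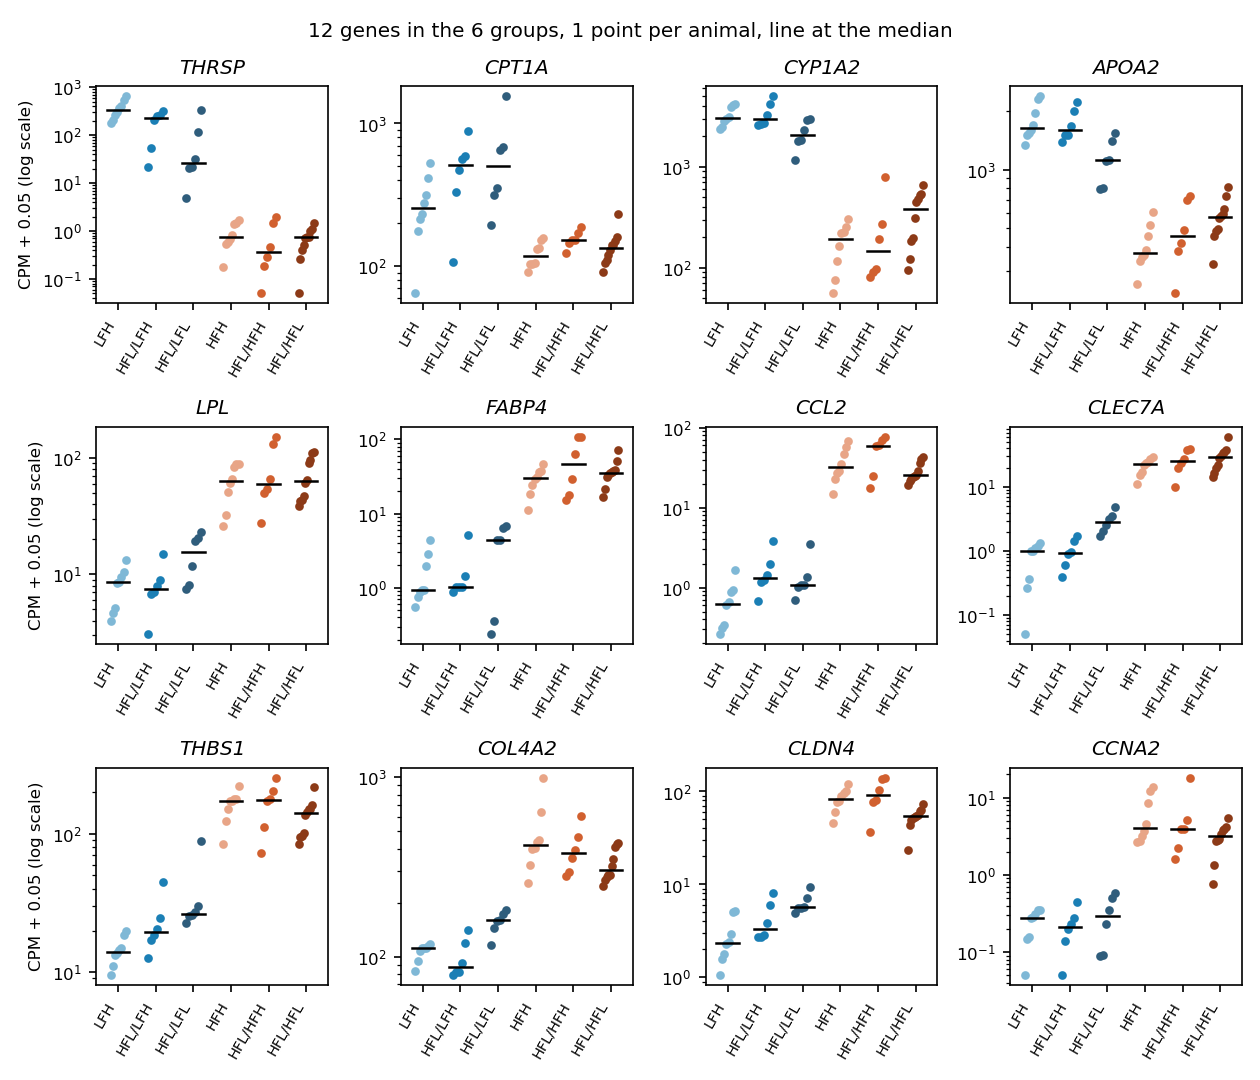
CPM + 0.05 on a log axis of 12 genes in all 6 groups, 1 point per animal (n = 6 to 10) and a line at the median, with the low fat groups on the left. HFL/LFH points do not overlap HFL/HFH points for 11 genes. For CPT1A, 1 HFL/LFH animal at 107 CPM lies below the HFL/HFH range.

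Extracellular matrix genes fell in 11 of 17 tested of 41 listed, rose in 3 and had a median of -1.07. COL4A2, a basement membrane collagen, had 78.5, 87.2 and 140 CPM in HFL/LFH and 280, 376 and 609 CPM in HFL/HFH (4.04-fold lower, log2 -2.01, SE 0.22, adjusted p = 1.44e-09). THBS1, which activates TGF-beta, had 12.6, 19.4 and 44.5 CPM against 72.2, 175 and 254 CPM (7.21-fold lower, adjusted p = 2.29e-09). LTBP2, a protein of elastic fibres, fell 5.69-fold without overlap. The 3 that rose were FN1 (2.57-fold), which hepatocytes also secrete as plasma fibronectin, FBN1 (2.58-fold) and BGN (1.76-fold), and all 3 had overlapping groups. COL1A1 was not analysed here.

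Matrix crosslinking and turnover genes fell in 10 of 16 tested of 26 listed and rose in 1 (median -0.91). LOXL1, which crosslinks elastin, fell 3.77-fold, and TIMP2, a protease inhibitor, 1.97-fold with overlap. TIMP3 rose 1.48-fold. In the stellate cell and myofibroblast list 4 of 12 tested of 22 listed fell and 1 rose (median -0.51). RGS5, a pericyte gene, had 119, 141 and 175 CPM against 470, 554 and 733 CPM (4.20-fold lower, adjusted p = 2.44e-10), and PDGFRB, the receptor through which stellate cells proliferate, fell 3.20-fold without overlap. LRAT, which stores retinol in quiescent stellate cells, rose 1.94-fold with overlap, but was not called with total counts (adjusted p = 0.120). ACTA2, the actin of myofibroblasts, had 32.7 to 178 CPM against 59.7 to 240 CPM and was not called (log2 -0.51, adjusted p = 0.372). Stellate cell markers (5 tested of 6) summed to 294 to 509 CPM against 792 to 1196 CPM, and RGS5 made up much of the sum.

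Bile duct genes fell together. Of 9 cholangiocyte and ductular genes tested of 20 listed, 8 fell and none rose (median -2.14). CLDN4, a tight junction protein, had 2.65, 3.31 and 8.00 CPM in HFL/LFH and 36.5, 92.3 and 140 CPM in HFL/HFH (22.2-fold lower, log2 -4.47, SE 0.35, adjusted p = 5.18e-13). KRT7, a keratin of ducts, had 8.59, 11.6 and 41.4 CPM against 51.9, 118 and 171 CPM (6.90-fold lower, adjusted p = 7.31e-06), and the adhesion gene EPCAM fell 6.29-fold. AQP1, a water channel shared with endothelium, was not called (log2 -0.49, adjusted p = 0.115). The cholangiocyte markers (4 tested of 6) summed to 156 to 473 CPM against 839 to 1515 CPM, while endothelial markers (5 tested of 10) summed to 459 to 641 CPM against 438 to 628 CPM. Of neighbouring tissues, CKM and TNNT3 of skeletal muscle were at or below 2.66 CPM in sum, and AMY2A, an amylase listed for exocrine pancreas whose counts are shared with the other amylase symbols, had 360 to 719 CPM against 326 to 649 CPM with CPA1, CELA3A and PNLIP under 200 counts in all.

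**Figure D4:**
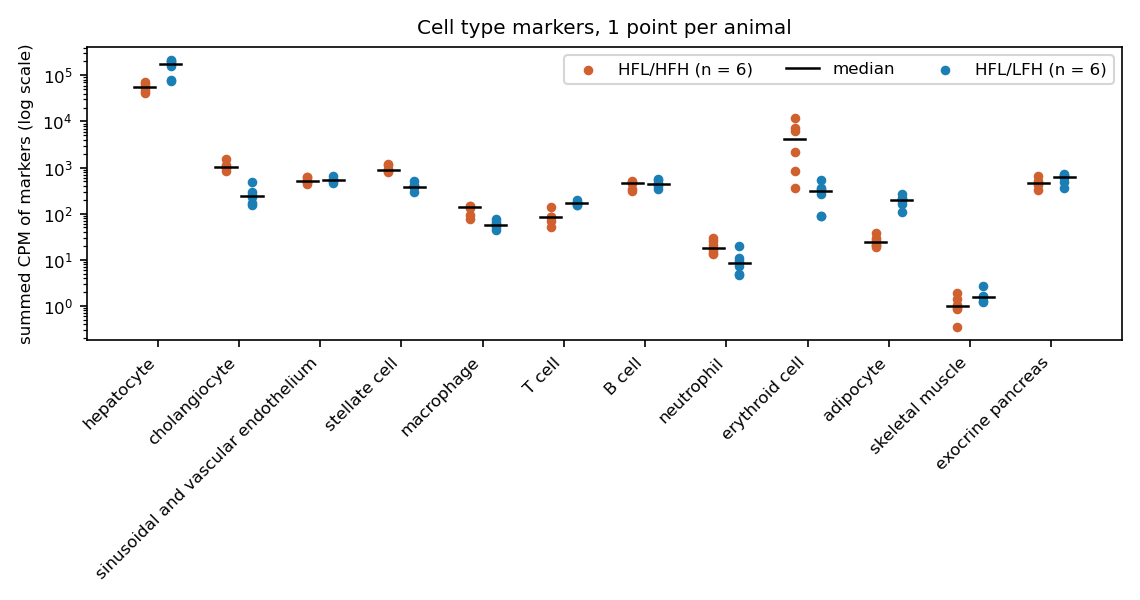
Summed CPM on a log axis of the markers with a value in each of 12 cell type lists, 1 point per animal with a line at the median of 6. Hepatocyte sums are higher in HFL/LFH (75446 to 211124 CPM against 41082 to 71794 CPM) and cholangiocyte and stellate sums lower, while the endothelial and B cell sums overlap.

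Proliferation genes were low after the switch. Of 20 cell cycle genes tested of 34 listed, 15 fell and none rose (median -2.14). CCNA2, cyclin A, had 0, 0.164 and 0.398 CPM in HFL/LFH and 1.54, 3.83 and 17.9 CPM in HFL/HFH (32.1-fold lower, log2 -5.00, SE 0.68, adjusted p = 1.45e-07). KIF11, a spindle motor, had 2.08, 2.85 and 4.12 CPM against 12.2, 18.3 and 55.5 CPM (8.37-fold lower, adjusted p = 5.53e-09), CENPE of the kinetochore fell 7.45-fold, and RRM2, which makes deoxynucleotides, 27.2-fold. HFL/HFH animal 15 was the highest in CCNA2, CENPE and KIF11. CCND1 and PCNA, which are also made outside dividing cells, were not called (log2 -0.10 and -0.15).

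Stress genes were called with TMM at a share near that of all genes (29.4% against 35.9%). Of 17 endoplasmic reticulum stress and heat shock genes tested of 28 listed, 2 rose, 3 fell and 12 were not called (median -0.06). With total counts 1 rose and 11 fell (median -0.59), and without HFL/HFH animal 84, or HFL/LFH animal 3, 32 or 58, 1 rose and 2 fell. CHAC1, which breaks down glutathione and is induced by ATF4, was at or below 3 counts in every HFL/LFH animal and had 3.002, 5.13 and 7.10 CPM in HFL/HFH, at least 35.4-fold lower against that floor (adjusted p = 6.41e-09). ATF4 itself was not called (log2 0.03). ATF3, a stress transcription factor, fell 3.71-fold with overlap. HSPA1A, an inducible chaperone with the same counts as HSPA1B, had 465, 953 and 2472 CPM against 311, 387 and 736 CPM (2.30-fold, adjusted p = 0.00840). The highest value was that of HFL/LFH animal 43, and without it the gene was not called (log2 0.79, adjusted p = 0.0760).

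Antioxidant genes were divided, with 6 of 18 tested of 31 listed higher and 5 lower (median 0.24, or -0.23 with total counts). SOD1 and CAT, which remove superoxide and hydrogen peroxide, rose 2.19-fold and 2.83-fold, SOD1 from 819, 990 and 1329 CPM to 1678, 2350 and 2610 CPM. HMOX1, which degrades heme, fell 2.12-fold. PRDX2, a peroxidase abundant in red cells, had 11.97, 21.7 and 41.8 CPM against 37.4, 130 and 232 CPM (5.73-fold lower, adjusted p = 2.16e-05). Red cell markers moved with it: HBA1 (with the same counts as HBA2) and ALAS2, the 2 tested of 5 listed, were both lower, with sums of 87.4 to 540 CPM in HFL/LFH and 353 to 11845 CPM in HFL/HFH. SLC23A2, a vitC transporter, was not called (log2 0.27).

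Outside the lists, some of the genes that rose most were low or at 0 on the high fat feed. ADRA1A, the adrenergic receptor by which catecholamines raise glucose output, had 49.5, 89.8 and 152 CPM against 0, 0.0632 and 2.83 CPM (log2 7.10, adjusted p = 1.95e-08). SLC13A2, a citrate and succinate carrier, had 14.6, 33.5 and 65.9 CPM against 0, 0.540 and 4.65 CPM, and NIPAL1, a magnesium transporter, rose 9.06-fold. Among the genes that fell, GFI1B, a factor of red cell and platelet precursors, was at or below 3 counts in every HFL/LFH animal and had 0.979, 5.05 and 10.6 CPM in HFL/HFH (at least 38.5-fold lower, adjusted p = 4.81e-05). GABRR3, a GABA receptor subunit, had at most 0.183 CPM against 1.92, 7.31 and 12.2 CPM. ACHE, acetylcholinesterase, fell 47.8-fold and PAK6, a kinase, 47.6-fold. In PAK6 the highest HFL/LFH animal, at 1.08 CPM, was close to the lowest HFL/HFH animal at 1.13 CPM.

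The same withdrawal at low vitC was used to ask whether the response depended on vitC. The difference between HFL/LFH and HFL/HFH departed from that between HFL/LFL and HFL/HFL for 0 of 7750 genes by edgeR (0.0%), with 638 at an unadjusted p under 0.05, and DESeq2 called 3. For MSMO1 the log2 fold change was 2.79 at high and 2.17 at low vitC, for SQLE 1.92 and 1.37, and for TREM2 -4.10 and -3.73. LRG1 had the widest departure among the acute phase genes named, with -1.67 at high and 0.64 at low vitC, but the test of that difference (log2 -2.31, SE 0.48) had an adjusted p of 0.151. S100A8 similarly had -2.36 and 1.02 (adjusted p of the difference 0.245). Neither was called with 6 to 10 animals a group.

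Animals fed without a switch gave a second reference that shares no animals with the comparison. LFH and HFH differed in 3822 genes (49.3%). Of the 2784 genes called after the switch, 2442 (87.7%) were called between LFH and HFH in the same direction, which is 63.9% of the latter, and 1 in the opposite direction. The difference after the switch departed from that between LFH and HFH for 8 genes (0.103%), and 524 had an unadjusted p under 0.05. HFL/LFH and LFH, which ate the same feed for the last 16 weeks, differed in 28 genes (0.361%), 18 higher and 10 lower in HFL/LFH, with 804 at an unadjusted p under 0.05.

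KRT23, a keratin of reactive ducts and injured hepatocytes, was lower in HFL/LFH than in HFL/HFH but above LFH. It had 0, 2.23 and 5.17 CPM in HFL/LFH, 29.7, 50.4 and 69.6 CPM in HFL/HFH, and 0, 0 and 0.335 CPM in LFH. It was 22.1-fold lower than in HFL/HFH, and its change departed from that between LFH and HFH by a log2 difference of 5.09 (SE 0.83, adjusted p = 0.00165). TREM2 showed the same order, with 0, 0.0455 and 0.668 CPM in LFH (HFL/LFH over LFH log2 4.35, SE 0.63, adjusted p = 3.77e-05). LGALS3, a marker of the same macrophages that was picked after its values were seen, had 5.47, 9.03 and 16.3 CPM in LFH, 17.4, 42.2 and 78.6 CPM in HFL/LFH and 156, 338 and 452 CPM in HFL/HFH, so that each group lay apart from the next. MMP12 was likewise above LFH (log2 4.82, adjusted p = 0.00708), where it was at a median of 0 CPM. Without HFL/LFH animal 33, the highest in TREM2, 4 genes in place of 8 departed from the LFH and HFH difference, with an adjusted p of 0.0554 for TREM2 and 0.0758 for LGALS3, and MMP12 was not called against LFH (adjusted p = 0.0583).

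PPP1R36, a regulator of protein phosphatase 1, was at 0 in every LFH animal and had 0, 0.458 and 1.37 CPM in HFL/LFH against 1.60, 3.56 and 5.46 CPM in HFL/HFH. GRIK2, a glutamate receptor subunit, had 0.377, 0.600 and 0.870 CPM in HFL/LFH, at most 0.172 CPM in LFH and 0.206, 1.24 and 2.42 CPM in HFL/HFH. Between the last and HFL/LFH it was not called with TMM (adjusted p = 0.123), but was with total counts (adjusted p = 0.0282). STARD4 was higher in LFH than in HFH but was not called after the switch. It had 18.4, 23.1 and 44.5 CPM in LFH, 2.83, 5.47 and 9.07 CPM in HFL/LFH, 3.74, 6.34 and 6.90 CPM in HFL/HFH and 4.34, 7.03 and 8.66 CPM in HFH, so that every LFH animal was above every animal of the other 3 groups (HFL/LFH over LFH log2 -2.20, SE 0.25, adjusted p = 4.89e-07). TGFB3 and PAQR4, a growth factor and a membrane receptor, complete the 8. TGFB3 was not called after the switch (log2 -0.57, adjusted p = 0.336). When each of the 12 animals was left out in turn, TGFB3 and PAQR4 were called 7 and 8 times. Both were lost without HFL/HFH animal 20, 22 or 84 or HFL/LFH animal 33, and TGFB3 also without HFL/LFH animal 32. HFL/LFL animals had 5.87 to 8.72 CPM of STARD4 and 2.96 to 13.6 CPM of KRT23.

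**Figure D5:**
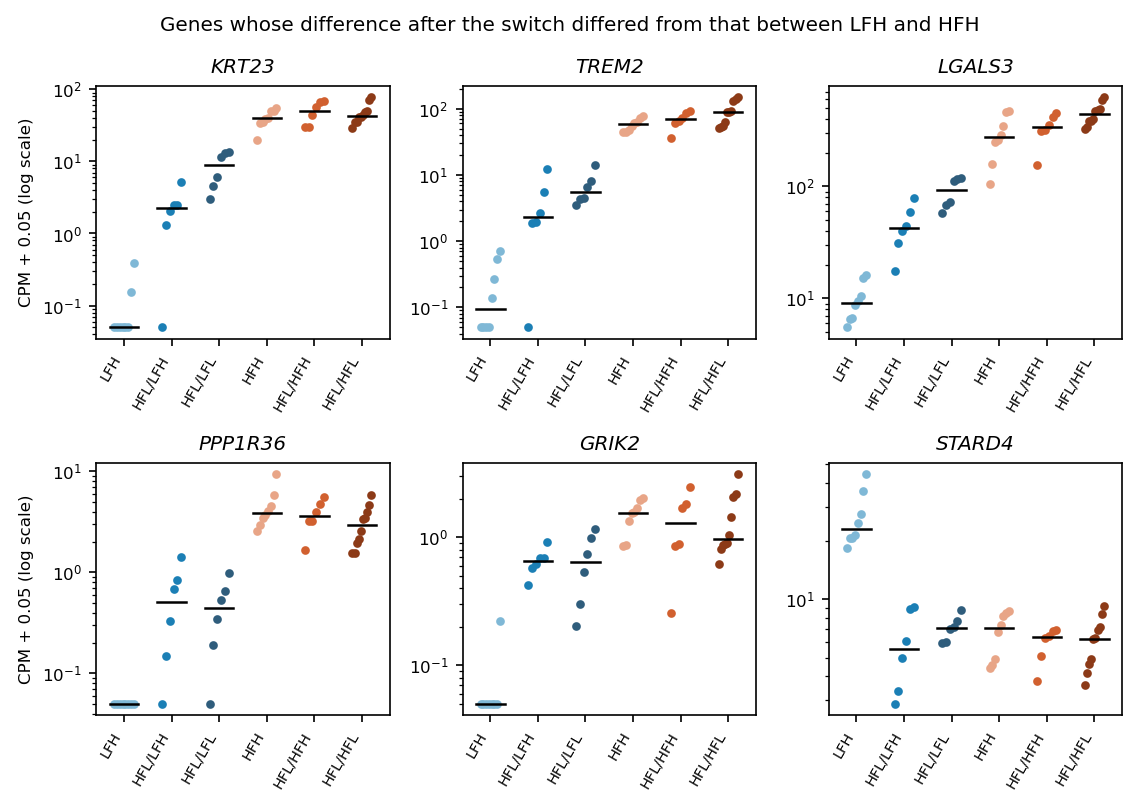
CPM + 0.05 on a log axis of 6 genes in all 6 groups, 1 point per animal with a line at the median. For KRT23, TREM2 and LGALS3 the medians of HFL/LFH and HFL/LFL lie between that of LFH and those of the high fat groups. For STARD4 the LFH animals lie at 18.4 CPM or more and all other groups below 10 CPM.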

How the data were processed

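The authors trimmed reads of oligo-dT enriched liver RNA with Trimmomatic 0.38.0, mapped them with HISAT2 2.1.0 to Ensembl's guinea pig assembly, quantified genes with StringTie 2.1.1 and named them by human orthologues. They deposited raw counts per symbol, 1 column per animal. How StringTie output became counts, and whether strand was used, is not given in the sources used here. The deposited variance-stabilized table was not used. Orthologue naming gives several symbols the same counts (964 symbols in 363 sets), which were counted once in lists.

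The counts of all 44 animals were fitted jointly in edgeR 4.0.16 (R 4.3.3) with a mean for each of 6 groups, TMM normalization and a quasi-likelihood F test. Symbols with a total of at least 200 were tested (7750 of 11967). Some genes abundant in liver have few deposited counts under their symbols (44 for FABP1 and 8 for HSPA5 over all 44 animals), so a listed gene that was not tested cannot be read as low in expression. P-values are two-sided and adjusted by the Benjamini-Hochberg procedure over all genes tested, with 0.05 as the threshold. Folds are fitted values. CPM use effective library sizes, by which a floor of 3 counts is 0.133 to 0.170 CPM in HFL/LFH and 0.087 to 0.125 CPM in HFL/HFH. This floor covers counting error only. Low genes have folds that depend on the prior count. Means of library sizes were compared by exact permutation. Euthanasia took several days and the labels give no day, so no batch could be tested.

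The choice of this comparison, of the 27 gene lists, the 12 marker lists and the tests was made with earlier results of these data known. The members are all animals of both groups. Genes were named by rule: the 8 largest rises and 8 largest falls (called, groups without overlap, the higher group averaging 5 CPM or more), in each list the pair of called members with the smallest p and the called member with the largest change beside them (at least 1 CPM), up to 5 called genes with the smallest p for dependence on vitC and for departure from the LFH and HFH difference, and SQLE and TREM2. Some genes that the rule names are not reported here. Other list members named were picked after their values were seen. Alternatives were DESeq2 1.42.0, upper quartile and RLE scaling, filterByExpr or no filter, each set of equal counts tested as 1 symbol, limma 3.58.1 voom with sample quality weights, only the 12 animals compared, and leaving out each of them. Total-count scaling and leaving out HFL/LFH animals 33 and 43 were added after seeing the data. The fits were tested on simulated data.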

Additional observations from a re-analysis of the deposited data

Results flagged for a closer look

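For 5 of the named genes the difference after the switch departed from that between LFH and HFH by edgeR's test of the difference itself. The naming rule took them for their small p in this test, which called 8 of 7750 genes (0.103%), so their number is set by the rule. The log2 departure was 5.09 for KRT23 (adjusted p = 0.00165), 7.12 for PPP1R36 (0.00226), 4.58 for GRIK2 (0.00569) and 4.12 for TREM2 (0.00672), and -2.02 for STARD4 (0.00165). GRIK2 and STARD4 were not called between HFL/LFH and HFL/HFH with TMM.

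Among 168 pairs of a named gene and a group, 18 had 1 animal far from the other 5 by Dixon's test. Pairs with every value near 0 are among the 168 but were not tested. Dixon's test assumes normally distributed values, which CPM need not be, so no rate by chance is given. HFL/LFH animal 33 was highest in MX1 (23.4 CPM, next 10.3), KRT7 (41.4, next 14.8) and the less abundant set of CCL3 and CCL18 symbols (0.265, next 0.0981), and lowest in C8B (702 CPM, next 1318). HFL/LFH animal 43 was highest in HSPA1A (2472 CPM, next 1048) and FPR2 (1.69, next 0.340). HFL/LFH animal 32 was highest in MSMO1 (689 CPM, next 289), TIMP2 (116, next 80.8) and PAK6 (1.08, next 0.0491), and animal 58 in FABP4 (5.02 CPM, next 1.41) and CCL7 (0.362, next 0). In HFL/HFH, animal 15 was highest in CENPE (34.6 CPM, next 18.2), KIF11 (55.5, next 24.9) and CCNA2 (17.9, next 5.14), animal 20 in CYP1A2 (788, next 271) and LRAT (55.4, next 33.6), and animal 84 in CCL7 (14.2, next 5.51). HFL/HFH animal 30 was lowest in ABCG1 (143 CPM, next 192).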

How the results depend on the processing

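No paired analysis was possible because the groups share no animal numbers. The 2784 genes called between HFL/LFH and HFL/HFH ranged from 2625 (only the 12 animals compared) to 4038 (total counts) over alternatives and from 2485 to 2951 when 1 animal was left out. Scaling to total counts gave 399 genes higher and 3639 lower. Effective library sizes differed by a log2 of -0.45 where totals differed by 0.02. Dependence on vitC was called for 3 genes by DESeq2 and 2 with total counts, against 0. For the departure from the LFH and HFH difference DESeq2 called 20 genes against 8, and leaving out 1 animal gave 4 (without HFL/LFH animal 33) to 11 (without HFL/LFH animal 43). Between HFL/LFH and LFH DESeq2 called 64 and limma voom 17 genes against 28, and leaving out 1 animal gave 19 to 32. Among lists, total counts gave 3 members called for sterol uptake, 4 for sterol efflux (4 also with limma voom), 14 for interferon response, 12 for endoplasmic reticulum stress and 3 for mitochondrial respiration. The endoplasmic reticulum stress list, with 5 called, had 3 (without HFL/HFH animal 84 or HFL/LFH animal 3, 32 or 58) to 6 (without HFL/LFH animal 33) called. NDUFB8 had a log2 fold change of -0.09 with total counts. Scaling to total counts also moved the median gene to -0.47. Why the calls shifted under any of the alternatives was not tested. Of 82 named genes called, 76 were called in the same direction under all 22 alternatives. Most were named for a small p or a large change in the same data, so a high share was set in advance. It does not describe all 2784 called genes, for which it was not counted. CYP8B1, LRAT, NDUFV1, FH and NDUFB8 were not called with total counts, nor HSPA1A without HFL/LFH animal 43. GRIK2, not called with TMM, was called lower with total counts (log2 -1.5, adjusted p = 0.0282). Folds of genes under about 1 CPM are limited by depth.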

Other observations

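Among the 10 genes lower in HFL/LFH than in LFH, 7 were not called between HFL/LFH and HFL/HFH, 1 was higher and 2 were lower than in HFL/HFH. Of all genes, 35.9% were called between HFL/LFH and HFL/HFH, so most were likewise not called. For 4 of the 10 (STARD4, REXO2, UBE2QL1 and CIB4) every LFH animal was above every HFL/LFH, HFL/HFH and HFH animal. The share of all genes with this order was not counted. It did not hold in every other group: CIB4 reached 2.247 CPM in HFL/LFL, with a lowest LFH value of 1.365 CPM. REXO2 reached 47.6 CPM in HFL/HFL, with a lowest LFH value of 43.5 CPM. The 4 genes were picked after their values were seen, and the LFH animals that place them above HFL/LFH are the same in each comparison. REXO2, an oligoribonuclease, had 43.5, 56.1 and 70.6 CPM (lowest, median and highest) in LFH, 32.8, 37.98 and 40.8 CPM in HFL/LFH and 27.1, 37.1 and 42.8 CPM in HFL/HFH (HFL/LFH over LFH log2 -0.62, SE 0.13, edgeR adjusted p = 0.00918). GLUL, the glutamine synthetase of hepatocytes around the central vein, had 233, 426 and 536 CPM in LFH, 111, 174 and 419 CPM in HFL/LFH and 126, 184 and 231 CPM in HFL/HFH (log2 -1.02, adjusted p = 0.0155). THY1, a fibroblast and portal cell surface protein, had 63.0 to 106 CPM in LFH and 29.1 to 60.3 CPM in HFL/LFH. HFL/LFL animals, which made the same change of feed at low vitC, overlapped LFH in REXO2 (26.4, 51.03 and 54.5 CPM), THY1 (42.98, 64.5 and 88.1 CPM) and PHLDA1 (17.9, 47.25 and 82.7 CPM). PHLDA1 was lower in HFL/LFH (12.1, 18.5 and 22.6 CPM) than in LFH (20.8, 42.0 and 87.5 CPM) and HFL/HFH (55.1, 75.8 and 95.3 CPM). Of the genes higher in HFL/LFH than in LFH, CCN5, a matricellular protein, had 2.67, 4.17 and 10.2 CPM in LFH, 8.54, 16.6 and 37.2 CPM in HFL/LFH and 43.2, 60.01 and 122 CPM in HFL/HFH. When each of the 12 animals was left out in turn, CIB4 was called against LFH 4 times (not without HFL/LFH animal 3, 4, 32, 33, 43 or 58 or HFL/HFH animal 20 or 84), UBE2QL1 10 times (not without HFL/LFH animal 32 or 33), REXO2, PHLDA1 and STARD4 12 times, THY1 9 times (not without HFL/LFH animal 3, 4 or 32), GLUL 10 times (not without HFL/LFH animal 33 or 58) and CCN5 10 times (not without HFL/LFH animal 32 or 33).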
